A study of Mus musculus with 6 samples.

Results

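The interferon response and antigen presentation genes were a list of 47 mouse genes, taken by symbol from the 24015 genes counted in each library. They were divided by role into 11 regulators and RNA or DNA sensors, 16 antiviral effectors, 2 genes of the ISG15 system, 9 guanylate binding and immunity-related GTPases, and 9 genes of MHC class I presentation. All 47 were in the files and 45 passed the filter on low counts. The libraries were RNA-seq of the arcuate nucleus (ARC), a hypothalamic region that controls feeding and reproduction, microdissected by hand from adult female mice. The 3 control mice carried floxed alleles of *Esr1*, which encodes estrogen receptor alpha (Esr1fl/fl), and the 3 mutant mice carried the same alleles and Nkx2-1-Cre (Esr1fl/fl;Nkx2-1-Cre). The labels give all 6 mice a mixed background of CD-1, 129P2 and C57BL/6. The Cre is driven by *Nkx2-1*, which acts in the wider basal hypothalamus as well as in the ARC, and the labels give it to the mutants only, so that Cre and the loss of *Esr1* cannot be told apart here.

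Interferons are secreted by cells that sense viral nucleic acid or by activated lymphocytes. They bind surface receptors and act through JAK kinases and STAT transcription factors, which switch on a shared set of target genes. Type I interferons act through STAT2 and IRF9 on the interferon-stimulated response element (ISRE). In the brain, microglia and endothelial cells are well known responders, and the targets include antiviral proteins, GTPases that attack vacuoles holding microbes, and the machinery that loads peptides on MHC class I.

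The libraries held 11792440 to 17877137 counts, so that 3 counts, the limit that a count of 0 allows, came to between 0.174 and 0.247 CPM (counts scaled to the size of each library) for counting error only. *Esr1* was at 64.4, 57.4 and 48.4 CPM in controls 1, 2 and 3 and at 11.8, 9.54 and 7.05 CPM in mutants 1, 2 and 3, as the labels say (log2 fold change -2.59 ± 0.18 SE, adjusted p = 0.000884, edgeR's quasi-likelihood test with Benjamini-Hochberg adjustment). Control 2 stood apart in its dissection markers. Its summed level of 8 pituitary and pars tuberalis markers was 6.10 CPM against 504.6 to 767.2 CPM in the other controls and 468.7 to 593.2 CPM in the mutants.

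Each member with an entry among the RefSeq promoter sequences (GRCm38.p6, 250 bases before to 50 after the start of a gene) was searched on both strands for the ISRE core, a pair of GAAA repeats with any 2 bases between them. In the 250 bases before the start, 16 of 36 members held the core (44.4%, 95% Wilson interval 29.5 to 60.4%), against 936 of 27025 genes in all (3.46%). The members were listed as interferon targets, so a share above that of all genes is not a separate result. The interval takes the members as independent, although some are neighbouring genes of the same family. The STAT-type motif TTCNNNGAA, searched in the same way, was in 9 of the 36 (25.0%) and in 8.13% of all. These 6 stretches come from the members with a core that had the smallest unadjusted p by edgeR, mutant against control. They were thus chosen by the expression result. The members were the antiviral *Ifit* pair, 2 *Gbp* GTPases, *Bst2* and the class I light chain *B2m*. Capitals mark the ISRE core or its reverse complement, and neighbouring matches that overlap run together.
Ifit3 (chr19:34583358-34583431, + strand): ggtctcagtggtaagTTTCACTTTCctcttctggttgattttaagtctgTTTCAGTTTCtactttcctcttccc
Ifit1 (chr19:34640770-34640828, + strand): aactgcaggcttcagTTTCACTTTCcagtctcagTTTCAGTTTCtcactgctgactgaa
Gbp2 (chr3:142620589-142620628, + strand): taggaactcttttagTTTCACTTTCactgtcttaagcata
Gbp3 (chr3:142559984-142560029, + strand): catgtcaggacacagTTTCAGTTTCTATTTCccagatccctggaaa
Bst2 (chr8:71537572-71537617, - strand): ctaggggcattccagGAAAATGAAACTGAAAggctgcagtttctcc
B2m (chr2:122147533-122147572, + strand): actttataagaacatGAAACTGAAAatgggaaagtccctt

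*Ifit3* and *Ifit1* held 2 separate cores each, starting 156 and 122 bases before the start of *Ifit3* and 104 and 85 bases before that of *Ifit1*, while those of *Gbp3* and *Bst2* overlapped. A match is a run of letters and not a shown binding site. The median log2 fold change, mutant over control, was 0.79 for the 15 tested members with a core and 0.64 for the 20 without. *Nlrc5*, *Dhx58*, *Zbp1*, *Ifi27*, *Parp14*, *Rtp4*, *Usp18*, *Gbp6*, *Gbp8*, *Iigp1* and *Tap2* had no entry.

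The comparison of mutant with control asked which members differ in the ARC when *Esr1* is deleted. The members were listed with earlier results of these data known, so their shares beside those of all genes are description and not a separate test. The estimate was above 0, higher in mutants, for 45 of the 45 tested members, against 51.0% of the 15236 genes tested. Their median log2 fold change was 0.75, with a range of 0.08 to 3.16, against 0.0035 for all genes. At an unadjusted p under 0.05, 23 of 45 members (51.1%) were higher and 0 lower, where 4.84% of all genes were higher and 4.01% lower. The 23 became 10 without control 2, 14 without control 3 and 14 without mutant 1. All 3 mutants were above all 3 controls for 19 of 45 (42.2%), where 7.88% of all genes were so placed.

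By edgeR's quasi-likelihood test with Benjamini-Hochberg adjustment, 0 of 45 members passed an adjusted p under 0.05, where 0.118% of all genes did (0.0591% higher). limma voom called 0 and DESeq2 called 9 of 44 (20.5%, against 0.643% of all genes called higher): *Ifit3*, *Oasl2*, *Ifitm3*, *Ifi44*, *Xaf1*, *Rtp4*, *Gbp2*, *Gbp3* and *Gbp8*. With the replicate number as a block, edgeR called 10 members, where 0.453% of all genes were called higher. A bulk level does not tell more cells of a type from more RNA per cell. With 3 mice a group, an exact permutation test on a single gene cannot go below p = 0.1.

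The mutants differed among themselves. Mutant 1 was the highest library for 37 of 45 members (82.2%) and for 20.7% of all genes, mutant 2 for the other 8 members, and mutant 3 for 0. Relative to the control mean, the median member was at a log2 ratio of 1.18 in mutant 1, 0.54 in mutant 2 and 0.26 in mutant 3, and at 0.24, -0.24 and -0.01 in the controls. Mutant 1 was above every control for 44 members, mutant 2 for 34 and mutant 3 for 21. Control 2 was the lowest library for 30 members and control 3 for 13. Without mutant 1, the median log2 fold change was 0.43, 42 of 45 estimates were above 0, and 14 of 45 (31.1%) were higher at an unadjusted p under 0.05, where 4.59% of all genes were. The map of members by library shows this order.

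**Figure D1:**
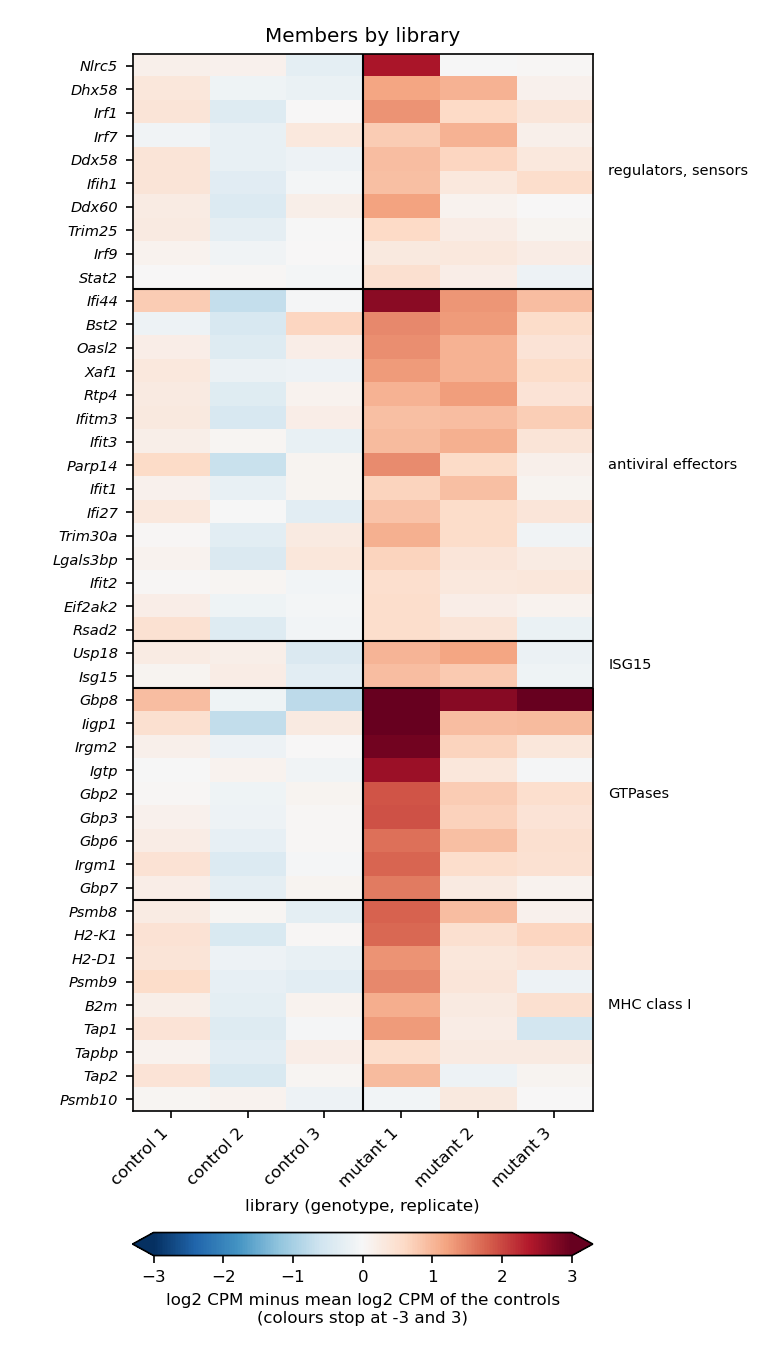
Log2 CPM of the 45 tested members in each of the 6 libraries, minus the mean log2 CPM of the controls, ordered by role and then by fold change; colours stop at -3 and 3. Mutant 1 is the highest library for 37 members, and mutant 3 is the lowest of the mutants for 35.

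Among the regulators and sensors, 10 were tested, with a median log2 fold change of 0.60, and 5 were higher at an unadjusted p under 0.05. Without mutant 1, the median was 0.33 and 0 of the 10 were under an unadjusted 0.05. After adjustment 0 passed by edgeR without a block or by DESeq2, and 2, *Ddx58* and *Ifih1*, passed by edgeR with the replicate block. *Irf1*, a transcription factor that interferon gamma induces strongly, was at 9.71, 5.58 and 7.38 CPM in controls and 19.0, 11.2 and 9.52 CPM in mutants (0.81 ± 0.30 SE). The lowest mutant lay just below the highest control. *Ddx58*, which encodes the RNA sensor RIG-I, was at 25.3, 16.3 and 17.1 CPM in controls and 36.4, 30.0 and 23.8 CPM in mutants (0.62 ± 0.21). *Ifih1*, the RNA sensor MDA5, was at 22.02, 13.4 and 16.3 CPM in controls and 31.6, 21.0 and 24.4 CPM in mutants (0.57 ± 0.21). In both sensors 1 mutant lay within the control range, mutant 3 for *Ddx58* and mutant 2 for *Ifih1*.

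The factors that carry the type I signal to the genome were closer between groups. *Irf9* was at 20.9, 17.9 and 19.4 CPM in controls and 23.9, 24.1 and 22.6 CPM in mutants (0.28 ± 0.11), and was the 1 tested regulator whose groups did not overlap. *Stat2*, its partner, was at 32.5, 32.8 and 31.0 CPM in controls and 44.8, 36.7 and 29.1 CPM in mutants (0.20 ± 0.14), with mutant 3 the lowest library. *Nlrc5*, the transactivator of MHC class I genes and named after its values were seen, was at 2.74, 2.73 and 2.01 CPM in controls and 14.0, 2.45 and 2.53 CPM in mutants. Its estimate of 1.31 ± 0.77 rested on mutant 1 and was -0.01 without it. *Zbp1*, a sensor of Z-form nucleic acid, had counts of 1, 0 and 2 in controls and 21, 5 and 6 in mutants and was below the filter. The other members of this role, *Irf7*, *Dhx58*, *Ddx60* and *Trim25*, had estimates from 0.30 to 0.89 and overlapping groups.

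The 15 antiviral effectors tested had a median log2 fold change of 0.72, 10 were higher at an unadjusted p under 0.05, and 8 had groups that did not overlap. Without mutant 1, 8 were under an unadjusted 0.05 and the median was 0.55. *Xaf1*, an interferon-induced gene linked to cell death, was at 29.9, 21.2 and 21.6 CPM in controls and 58.2, 49.8 and 35.0 CPM in mutants. Every mutant was above every control, and the means were 24.2 ± 4.87 and 47.6 ± 11.7 CPM (SD, n = 3 each). The log2 fold change was 0.97 ± 0.21 (edgeR adjusted p = 0.163; DESeq2 adjusted p = 0.000438; edgeR, limma and DESeq2 adjusted p from 0.000438 to 0.521 over 12 alternatives). *Xaf1* lies on chromosome 11 at 72115131 to 72127235 (NCBIM37).

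*Ifitm3*, which blocks virus entry at endosomes, was at 41.1, 41.7 and 36.5 CPM in mutants, above controls at 26.6, 15.6 and 25.3 CPM. Its log2 fold change was 0.83 ± 0.19, and 0.80 without mutant 1 (edgeR adjusted p = 0.178; DESeq2 adjusted p = 0.00348; 0.00348 to 0.555 over 12 alternatives of edgeR, limma and DESeq2). *Ifit3*, which with *Ifit1* binds foreign RNA caps, was at 10.2, 9.36 and 7.74 CPM in controls and 17.6, 18.9 and 11.8 CPM in mutants (0.82 ± 0.20; edgeR adjusted p = 0.191; DESeq2 adjusted p = 0.0374; 0.0374 to 0.619 over the same edgeR, limma and DESeq2 alternatives). Both held every mutant above every control, with mutant 2 the highest library. For *Oasl2*, a member of the oligoadenylate synthetase family, controls were at 25.5, 16.9 and 25.5 CPM and mutants at 58.6, 45.6 and 29.3 CPM (0.98 ± 0.28; edgeR adjusted p = 0.369; DESeq2 adjusted p = 0.00472; 0.00472 to 0.755 over the edgeR, limma and DESeq2 alternatives).

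*Rtp4*, an interferon-induced chaperone, was at 8.10, 5.17 and 7.17 CPM in controls and 14.0, 16.2 and 8.98 CPM in mutants (0.94 ± 0.25; 0.89 without mutant 1). *Ifi44* was at 3.48, 1.16 and 1.94 CPM in controls and 13.7, 5.21 and 3.93 CPM in mutants (1.79 ± 0.59; 1.07 without mutant 1). Neither gene's groups overlapped, but the lowest mutant of each stood close to the highest control. Outside the naming rule, *Ifit2* and *Ifi27* also had groups that did not overlap, with estimates of 0.39 ± 0.11 and 0.57 ± 0.18. *Ifit1* was at 10.3, 8.14 and 10.03 CPM in controls and 15.1, 17.8 and 9.98 CPM in mutants, with mutant 3 inside the control range. *Rsad2*, which makes an antiviral nucleotide, had the smallest estimate of the effectors, 0.23 ± 0.28. *Bst2*, which tethers budding virus, was near the floor at 0.402, 0.290 and 0.788 CPM in controls and 1.48, 1.32 and 0.732 CPM in mutants (1.26 ± 0.51). *Eif2ak2*, *Trim30a*, *Parp14* and *Lgals3bp* had estimates of 0.28 to 0.72 and overlapping groups, and *Oas1a*, at counts of 4, 4 and 0 in controls and 9, 12 and 5 in mutants, was below the filter.

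**Figure D2:**
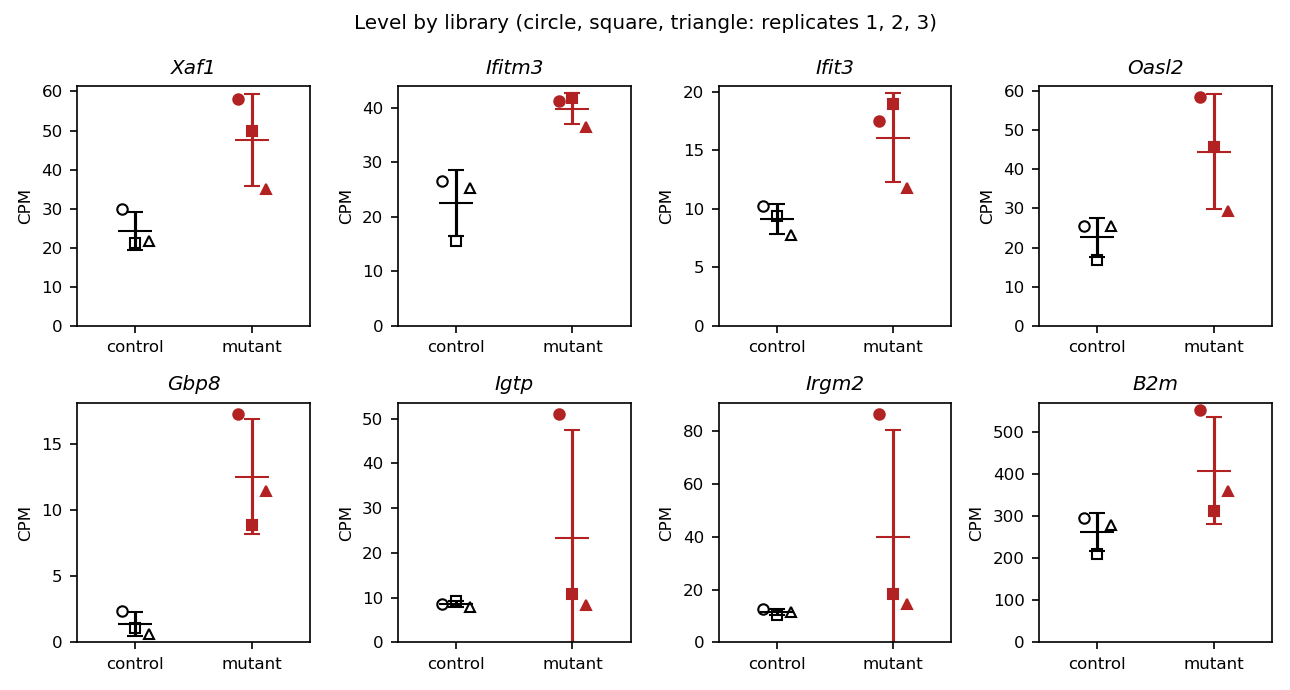
CPM in each library for 8 members; circles, squares and triangles are replicates 1, 2 and 3, and bars are the mean ± SD of 3 mice, with the axis from 0, where the lower bars of *Igtp* and *Irgm2* are cut off. *Xaf1*, *Ifitm3*, *Ifit3* and *Oasl2* have all mutants above all controls, while *Igtp* and *Irgm2* are far higher in mutant 1 than in mutants 2 and 3.

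The ISG15 system attaches a ubiquitin-like protein to other proteins. *Isg15*, the modifier itself, was at 1.27, 1.40 and 0.931 CPM in controls and 2.39, 2.13 and 1.06 CPM in mutants (0.62 ± 0.39). *Usp18*, the protease that removes it and restrains the interferon receptor, was at 4.42, 4.18 and 2.72 CPM in controls and 7.67, 8.54 and 3.26 CPM in mutants (0.77 ± 0.36). Mutant 3 lay within the control range for both, and neither passed an unadjusted p of 0.05.

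The GTPases had the largest median log2 fold change of the 5 roles, 1.18, and the largest gap between mutant 1 and the others. All 9 were highest in mutant 1, and 7 of the 9 were over 2 times the mean of mutants 2 and 3 there, as were 15 of the 45 members and 1.87% of all genes. The summed level of the 9 was 64.0 to 83.8 CPM in controls and 350.4, 111.3 and 98.5 CPM in mutants 1, 2 and 3. At an unadjusted p under 0.05, 5 were higher with all libraries and 5 without mutant 1, where the median was 0.56.

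*Gbp8*, a guanylate binding protein gene on chromosome 5 at 105443172 to 105482580 (NCBIM37), had the largest difference of all members. It was at 2.41, 1.10 and 0.645 CPM in controls and 17.3, 8.85 and 11.4 CPM in mutants, a fold of 8.95. The lowest mutant was over 3 times the highest control. The log2 fold change was 3.16 ± 0.44 and 2.86 without mutant 1 (edgeR adjusted p = 0.0567, unadjusted p = 8.05e-05; DESeq2 adjusted p = 3.06e-12, the lowest of 11 alternatives of edgeR, limma and DESeq2, with 0.174 the highest). It passed 0.05 in 4 of the 11, among them edgeR without control 1 (adjusted p = 0.0118). Reads from the other *Gbp* genes in the chromosome 5 cluster may be shared with it.

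*Gbp2* was at 6.09, 5.404 and 6.23 CPM in controls and 22.01, 10.04 and 8.38 CPM in mutants (1.18 ± 0.35; 0.64 without mutant 1). *Gbp3* was at 9.97, 8.19 and 9.31 CPM in controls and 34.6, 14.8 and 12.2 CPM in mutants (1.16 ± 0.41; 0.56 without mutant 1). *Gbp6* was at 2.34, 1.63 and 2.01 CPM in controls and 6.51, 3.83 and 2.79 CPM in mutants (1.13 ± 0.34). In each of the 3, every mutant was above a narrow control group. *Igtp*, an immunity-related GTPase that acts on vacuoles holding parasites, was at 8.50, 9.18 and 7.95 CPM in controls and 51.0, 10.8 and 8.32 CPM in mutants, so that mutant 3 was among the controls (1.43 ± 0.81; 0.16 without mutant 1). *Irgm2* and *Iigp1*, of the same family and named after their values were seen, were at 86.4 and 29.8 CPM in mutant 1, against 18.2 and 2.89 CPM in mutant 2. Their estimates were 1.77 and 2.92, and 0.50 and 0.91 without mutant 1. *Gbp7* and *Irgm1* had estimates of 0.79 ± 0.46 and 1.01 ± 0.41, and 0.17 and 0.46 without mutant 1.

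The 9 genes of MHC class I presentation had a median log2 fold change of 0.64, with 3 higher at an unadjusted p under 0.05. Without mutant 1, the median was 0.25 and 1 was higher. *B2m*, the light chain shared by all class I molecules (chromosome 2, 121973422 to 121978819, NCBIM37), was at 295.4, 210.9 and 280.5 CPM in controls and 553.8, 312.6 and 360.1 CPM in mutants. The groups did not overlap, and the log2 fold change was 0.64 ± 0.24, 0.36 without mutant 1 (edgeR adjusted p = 0.514; DESeq2 adjusted p = 0.0538). Per kilobase of exon, *B2m* had the highest level of the members with a length, 305 CPM per kb in controls and 475 CPM per kb in mutants, against 33.2 and 58.7 CPM per kb for *Ifitm3*.

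*H2-K1*, a classical heavy chain, was at 68.4, 36.4 and 51.3 CPM in controls and 167.3, 70.8 and 79.4 CPM in mutants (1.02 ± 0.44; 0.53 without mutant 1). Every mutant was above every control, although mutant 2 exceeded control 1 only slightly. *Psmb8*, an immunoproteasome subunit, was at 4.15, 3.60 and 2.79 CPM in controls and 12.2, 6.71 and 3.79 CPM in mutants (1.09 ± 0.39), with mutant 3 within the controls. *Tapbp*, the tapasin that holds class I molecules at the peptide transporter, was at 24.6, 18.4 and 25.9 CPM in controls and 33.0, 27.5 and 27.2 CPM in mutants (0.35 ± 0.15). The transporter genes *Tap1* and *Tap2*, beyond the naming rule, had estimates of 0.47 ± 0.47 and 0.33 ± 0.34, and of -0.15 and -0.07 without mutant 1. *Psmb10* had the smallest estimate of all members, 0.08 ± 0.17. The heavy chain *H2-D1* had an estimate of 0.75 ± 0.34 and the immunoproteasome subunit *Psmb9* one of 0.66 ± 0.44, both with overlapping groups. Reads shared between near-identical class I copies make the heavy chain levels uncertain.

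**Figure D3:**
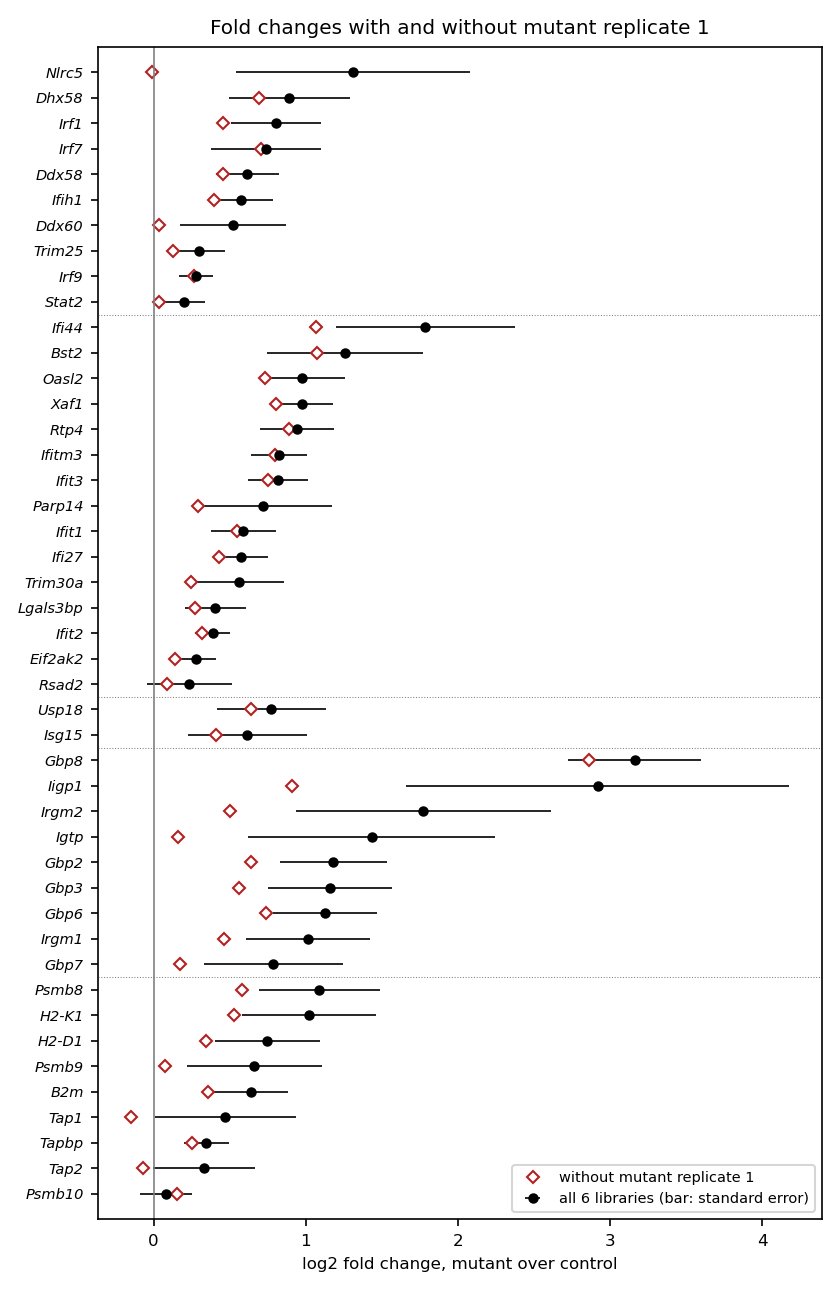
Log2 fold change (mutant over control) of the 45 members with all 6 libraries, with bars of 1 standard error, and without mutant replicate 1. Most antiviral effectors move by less than their standard error, *Iigp1*, *Nlrc5*, *Irgm2* and *Igtp* move most, and *Nlrc5*, *Tap1* and *Tap2* drop below 0.

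Other genes of the pathway were listed by role. Of 21 interferon ligands listed, 19 were in the files, 8 were at 0 in every library, and 1, *Ifng*, was tested. *Ifng* was at 0.937, 0.232 and 1.00 CPM in controls and 0, 0.502 and 0.732 CPM in mutants (-0.71 ± 0.82), with mutant 1 at 0 counts. The 6 receptor genes had a median log2 fold change of 0.11 and 0 passed an unadjusted p of 0.05. *Ifnar1*, a type I receptor chain, differed by 0.05 ± 0.08, and *Ifngr1*, a gamma receptor chain, by 0.13 ± 0.13. Among 9 kinases, STATs and feedback genes the median was 0.08 and 0 passed an unadjusted p of 0.05.

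Of 15 pattern recognition genes tested, 1 was higher at an unadjusted p under 0.05, *Tlr3*, the endosomal sensor of double-stranded RNA. It was at 54.8, 47.5 and 50.5 CPM in controls and 69.2, 65.7 and 64.5 CPM in mutants (0.38 ± 0.09; edgeR adjusted p = 0.166). *Irf5* had the lowest estimate of the list, -0.90 ± 0.42. The 44 other interferon targets tested had a median of 0.52 and 12 higher at an unadjusted p under 0.05, and without mutant 1 a median of 0.30 and 3 higher. *Gbp11* was at 0.736, 0.755 and 2.36 CPM in controls and 4.78, 4.08 and 3.73 CPM in mutants (1.72 ± 0.43; edgeR adjusted p = 0.209). *Mx2*, an antiviral dynamin-like GTPase, was at 1.54, 1.22 and 1.94 CPM in controls and 3.54, 3.01 and 3.13 CPM in mutants (1.05 ± 0.29). *Gbp4*, named after its values were seen, was at 3.55, 2.32 and 3.15 CPM in controls and 31.3, 6.28 and 5.26 CPM in mutants (2.23 ± 0.85; 0.94 without mutant 1).

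The 3 standard proteasome subunits that the immunoproteasome replaces had a median of -0.01, with *Psmb7* at 64.1 ± 2.69 and 63.7 ± 3.83 CPM (SD, n = 3 each). The 18 other class I genes and chaperones had a median of 0.13 and 2 higher at an unadjusted p under 0.05, *H2-Q4* (1.31 ± 0.38) and *H2-M3* (0.69 ± 0.27). The 7 MHC class II genes tested, which present peptides to helper T cells, had a median of 1.39 and 5 higher at an unadjusted p under 0.05. Without mutant 1, their median was 0.94 and 4 were higher. *H2-Aa* was at 5.42, 2.09 and 5.59 CPM in controls and 16.9, 8.72 and 9.91 CPM in mutants (1.44 ± 0.40). *Ctss*, the cathepsin that trims the class II invariant chain, was at 68.9, 66.1 and 55.7 CPM in controls and 117.1, 87.5 and 99.0 CPM in mutants (0.67 ± 0.12; edgeR adjusted p = 0.0706). Of the 5 pathway genes DESeq2 called, 3 were class II genes, *H2-Aa*, *H2-Eb1* and *Ctss*, and 2 were *Gbp11* and *Tgtp2*.

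**Figure D4:**
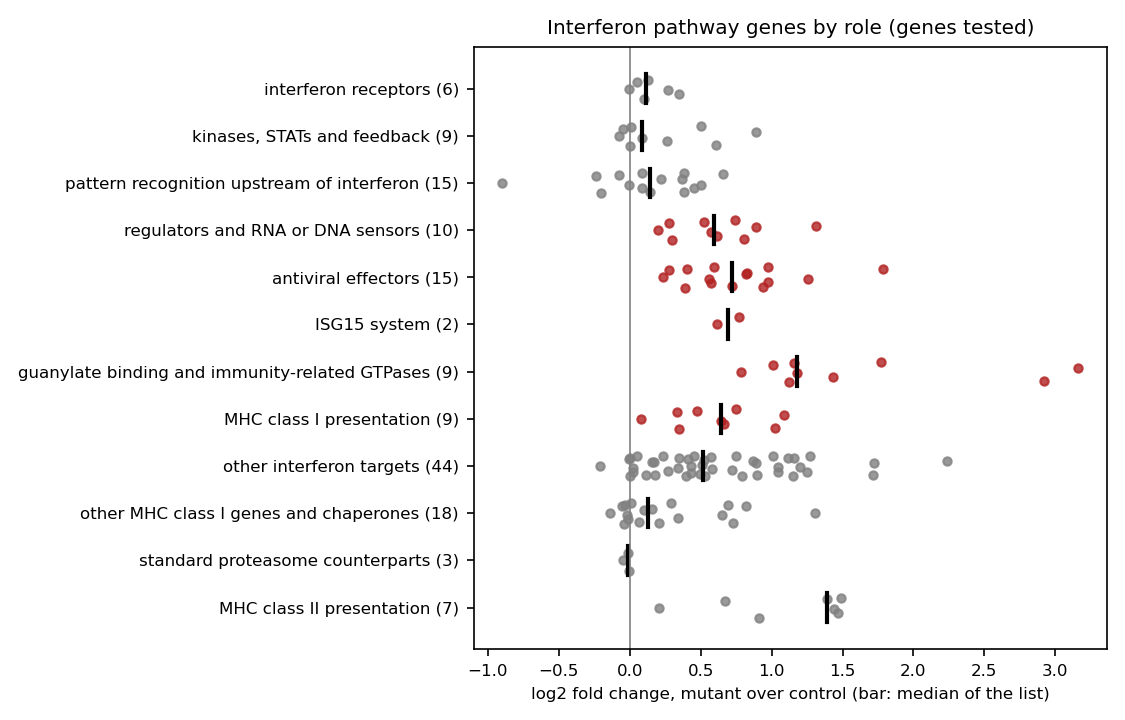
Log2 fold change (mutant over control) of each tested gene by role, members in red and other pathway genes in grey, with the number tested in brackets and a bar at the median. Receptors, kinases and standard proteasome genes lie near 0, and targets and class II genes lie above it.

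Markers of other cell types were measured beside the members. All 16 microglia and macrophage markers had estimates above 0 (median 0.37, 0.35 without mutant 1), and their summed level was 343.9 to 360.0 CPM in controls and 442.0 to 465.7 CPM in mutants. Of the 16, 8 were higher at an unadjusted p under 0.05 by edgeR, and 8 had all mutants above all controls. *Cx3cr1*, the fractalkine receptor of microglia, was at 34.1 ± 3.23 and 52.6 ± 2.31 CPM (SD, n = 3 each). Mutant 1 did not stand out in this list, where its median log2 difference from mutants 2 and 3 was 0.02, against 0.68 for the members. The same difference was 0.11 for endothelial, -0.03 for oligodendrocyte, -0.30 for neuron and -0.34 for astrocyte markers. The 10 oligodendrocyte markers summed to 696.1 to 1315 CPM in controls and 1714 to 1861 CPM in mutants. Their median log2 fold change was 0.96. All 10 were higher at an unadjusted p under 0.05 by edgeR, with groups that did not overlap. Of these, 1, *Cldn11*, passed after adjustment (edgeR adjusted p = 0.0313). The 12 endothelial markers summed to 135.4 CPM in control 2, 201.6 and 227.6 CPM in the other controls, and 212.0 to 233.7 CPM in mutants. The part of these cells in the members' levels was not tested. The 15 lymphocyte markers in the files summed to 2.56 to 6.66 CPM in controls and 4.45 to 4.99 CPM in mutants. *Cd3d* and *Cd3g* were at 0 in 5 and 4 of the 6 libraries. The 2 tested, *Cd4* and *Lck*, had estimates of -0.23 ± 0.53 and -0.0025 ± 0.31. Below the filter, *Klrb1c* had counts of 2, 1 and 1 in controls and 5, 7 and 6 in mutants. *Cd8a* had counts of 0, 0 and 0 in controls and 1, 3 and 2 in mutants. The groups of the other lymphocyte markers overlapped. The 8 neutrophil and monocyte markers in the files summed to 4.07 to 5.22 CPM in controls and 6.92 to 7.83 CPM in mutants. The 2 of them tested, the chemokine receptor gene *Ccr2* and the cytokine receptor gene *Csf3r*, had estimates of 2.03 ± 0.39 and 0.29 ± 0.26. *Mpo*, an enzyme of neutrophil granules, was at 0.669, 0.523 and 0.573 CPM in controls and 0.330, 0.502 and 0.200 CPM in mutants, and *Elane* was at 0 in each of the 6 libraries.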

How the data were processed

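RNA was prepared from the microdissected ARC of 3 control and 3 mutant mice, amplified and sequenced. The deposited files are whole-number read counts per gene made by the authors. The submitters' processing notes name TopHat2 2.1.0, HTSeq 0.6 and DESeq2 1.14.1 and the build mm9. The strand setting and counting mode are not given in the sources used here, so reads of near-identical or antisense genes may be shared. Counts were filtered with filterByExpr (15236 of 24015 genes kept), scaled by TMM and tested with edgeR 4.0.16 (quasi-likelihood, Benjamini-Hochberg, R 4.3.3). Standard errors are the log2 fold change over the square root of F. CPM used the whole library size with TMM factors. DESeq2 1.42.0, limma voom 3.58.1, RLE scaling, other filters, a replicate block and leaving out each library were alternatives, and the code was tested on simulated data. Gene positions are GENCODE's on NCBIM37. Members and lists were chosen with earlier results of these data known. The genes named are members called by an alternative tool, fixed genes of each role, and fixed or called pathway genes, and every other member, pathway gene or marker named with a value was named after its values were seen. All libraries differed by more than sampling noise.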

Additional observations from a re-analysis of the deposited data

How the results depend on the processing

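Over all genes, the number at an adjusted p under 0.05 was 18 with edgeR, 191 with DESeq2, 106 with a filter of at least 1 count in any sample, and between 7 (without mutant 3) and 46 (without control 2) when 1 library was left out, with 9 without mutant 2. The number of members called went from 0 to 9 with DESeq2, to 1 with the looser filter, and lay between 0 and 1 (without control 1) when a library was left out. Members higher at an unadjusted p under 0.05 numbered 23, and between 10 and 33 when a library was left out, with 10 without control 2 and 14 without control 3 or without mutant 1. The GTPase median log2 fold change of 1.18 lay between 0.56 (without mutant 1) and 1.43. The median over all members lay between 0.43 and 0.97. The cause of these differences was not tested. No direction turned among the 22 members named by rule. Of the other members, *Nlrc5*, *Tap1* and *Tap2* turned to -0.01, -0.15 and -0.07 without mutant 1, and *Psmb10* to -0.05 without mutant 2. RLE scaling and limma voom left the 22 named members on the same side of the threshold. The correlation of deviations was 0.281, 0.0466 and -0.00264 for control and mutant of the same replicate number. It ran from -0.263 to 0.21 for those of different numbers. These values do not settle whether the replicate numbers pair the samples. A fit with the replicate block called 123 genes, 10 of them members, at an adjusted p under 0.05. The depth of 11792440 to 17877137 counts left *Zbp1* and *Oas1a* untested.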
